A study of Homo sapiens with 11 samples.

Results

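STAT5A and STAT5B, the kinase genes PIM1, PIM2 and PIM3, and the feedback inhibitor genes SOCS1, SOCS2, SOCS3 and CISH were followed in MOLM-13 cells under Menin and immunoproteasome inhibition. These 9 genes were chosen by symbol, as the STAT5 factors and targets that lie downstream of the mutant receptor tyrosine kinase FLT3-ITD, from 38557 annotated genes. MOLM-13 is a human acute myeloid leukemia line with a KMT2A::MLLT3 fusion and an internal tandem duplication (ITD) in FLT3, and all libraries share this background and RPMI medium with serum. Cells were exposed for 72 h to the diluent DMSO (4 libraries), to 1 μM of the Menin inhibitor MI-503 (4 libraries), or to 1 μM MI-503 plus 100 nM of the PSMB8 inhibitor PR-957, also named ONX-0914 (3 libraries, replicates 1, 2 and 4, called the combination here). PR-957 alone is not analysed here, so its effect is seen only in cells that also received MI-503.

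STAT5A and STAT5B are transcription factors that wait in the cytoplasm until a receptor-linked tyrosine kinase, such as a JAK kinase or FLT3-ITD, phosphorylates them. They then pair, enter the nucleus and bind GAS-type elements, which raises transcription of survival kinases of the PIM family and of SOCS family genes. The SOCS and CISH proteins bind activated receptors and kinases, block them or mark them for degradation, and so close a negative feedback loop. Transcript levels of these genes are a common readout of STAT5 activity, whereas phosphorylation itself was not measured in these data.

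Counted fragments per library ran from 18.9 to 41.2 M, and all 9 genes were among the 14683 that passed the filter on low counts. In a chi-square test of counts between replicates, the statistic divided by its degrees of freedom was 1.67 to 5.53 for pairs of DMSO or of MI-503 libraries, whereas combination replicate 1 stood 17.7 and 30.2 from replicates 2 and 4, so results that rest on it are also given without it. Of 8 myeloid markers, CD14 stayed between 2 and 13 counts per library and the other 7 passed the filter. The sum of the 8 was 1212 to 1291 counts per M of library total (CPM) in DMSO, 1835 to 1993 in MI-503 and 2018 to 4350 in the combination. Within that sum, LYZ alone ran from 88.0 to 106 CPM in DMSO, 371 to 381 in MI-503 and 599 to 2513 in the combination. The 9 markers of other cell types summed to 215 to 223, 302 to 318 and 280 to 304 CPM, of which CD3E, MS4A1, HBB and EPCAM had at most 2 counts in any library. These sums moved with the treatments, and their part in the results below was not tested. Nothing in the labels says whether the replicates are separate cultures, so the p-values measure the spread between these libraries, which may be technical.

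In MI-503 against DMSO, 3 of the 9 genes were called higher (STAT5A, STAT5B and PIM1) and 2 lower (SOCS2 and PIM3), where 22.0% of all tested genes were called higher and 29.3% lower. In the combination against DMSO, 3 were higher (STAT5A, PIM1 and SOCS3) and 4 lower (SOCS2, PIM2, SOCS1 and CISH), beside 31.7% higher and 32.8% lower over all tested genes. In the combination against MI-503, 3 were higher (STAT5A, PIM3 and SOCS3) and 5 lower (PIM1, PIM2, SOCS1, SOCS2 and CISH), beside 23.6% and 23.8%. A call is an adjusted p under 0.05 in edgeR's two-sided quasi-likelihood test after Benjamini-Hochberg correction for the 14683 genes, and every adjusted p below is of that kind. With 9 genes, these counts are read against shares of called genes that were large in every comparison. The split of calls depended on the scaling, since 42.9% of the genes called between MI-503 and DMSO were higher with TMM factors and 54.2% with upper-quartile factors. All 3 comparisons share groups: DMSO enters the first and the second, MI-503 the first and the third, and the combination the second and the third.

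**Figure D1:**
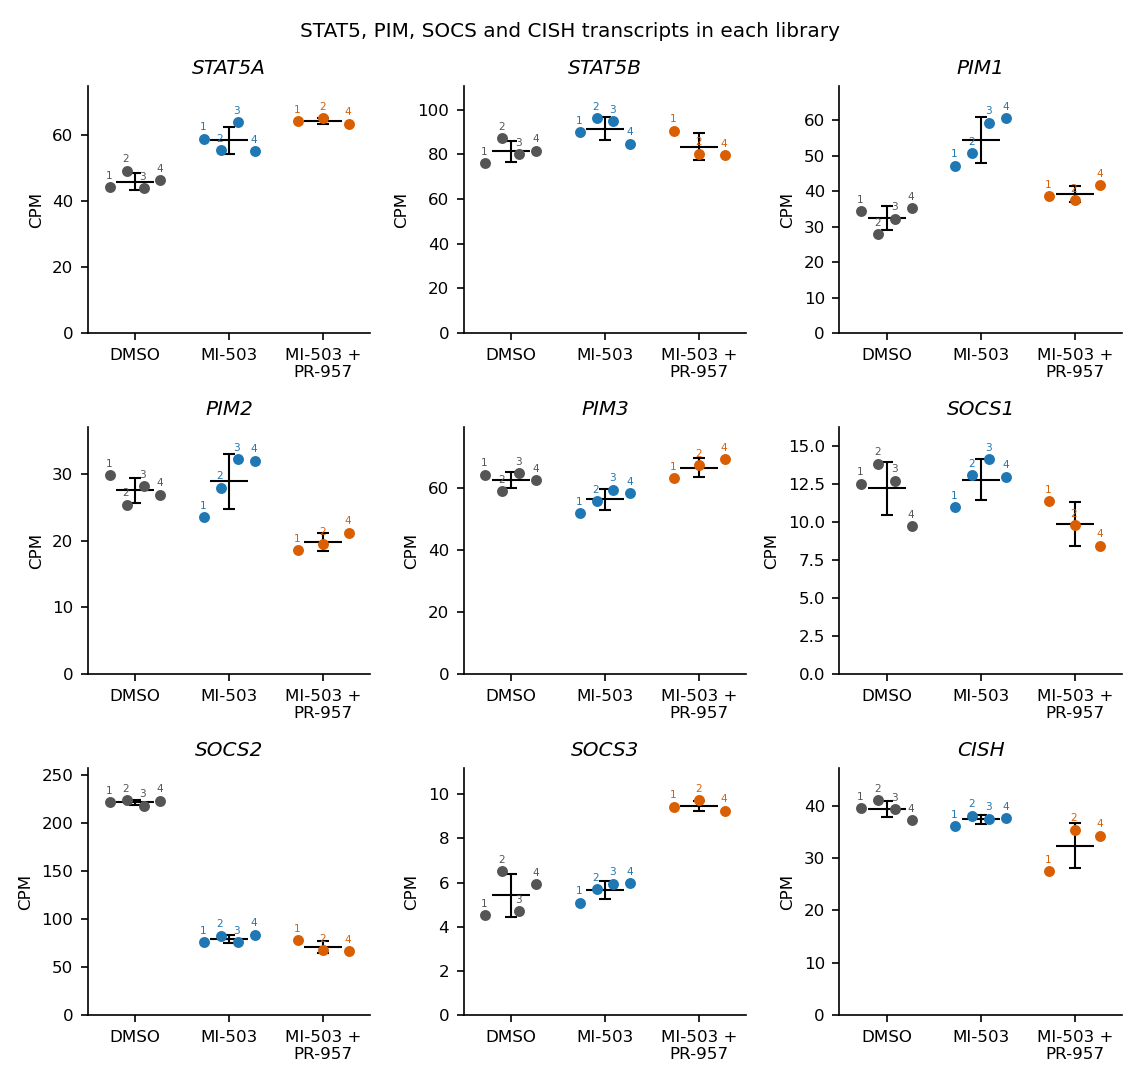
Level of each gene in every library, in counts per M of library total (CPM, vertical axis from 0), by treatment group. Points are libraries labelled with their replicate number and bars are mean ± SD (n = 4, 4 and 3). SOCS2 lies between 218 and 224 CPM in DMSO and between 66.7 and 83.7 CPM in all treated libraries, while SOCS3 lies highest in the combination (9.26 to 9.73 CPM).

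SOCS2 fell most of the 9 genes, and it did so in MI-503 with or without PR-957. The gene lies at chr12:93569849-93626236 on the plus strand (hg38, as are all coordinates of genes here) and encodes an inhibitor of cytokine and growth hormone receptor signaling. Its level was 222, 224, 218 and 223 CPM in DMSO replicates 1 to 4. In MI-503 it was 75.8, 82.9, 75.8 and 83.7 CPM, and in combination replicates 1, 2 and 4 it was 77.8, 67.6 and 66.7 CPM. No treated library came near a DMSO library, and the combination overlapped MI-503 only through replicate 1. The log2 fold change was −1.48 in MI-503 (95% interval −1.59 to −1.37, adjusted p = 2.26e-12), which is 2.79-fold lower, and −1.65 in the combination (−1.77 to −1.53, adjusted p = 6.51e-13), 3.13-fold lower. By size of change, SOCS2 ranked 335 of the 14683 tested genes in MI-503 and 577 in the combination. In bulk RNA, fewer cells that express a gene and less RNA per cell cannot be told apart.

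SOCS2 was lower in the combination than in MI-503 by −0.17 on the log2 scale (SE 0.0561, adjusted p = 0.0215), a difference of 10.9%. That call was lost when MI-503 replicate 2 (adjusted p = 0.0683) or replicate 4 (adjusted p = 0.0702) was left out, and when only the 2 groups compared were fitted (adjusted p = 0.0525). Without combination replicate 1 the change was −0.27 (adjusted p = 1.01e-04). The antisense gene SOCS2-AS1, looked at after its values were seen, went from 14.4 ± 1.00 CPM in DMSO (SD, n = 4) to 4.71 ± 0.482 in MI-503 and 4.56 ± 0.109 in the combination. Its log2 fold changes were −1.61 and −1.66 against DMSO (adjusted p = 4.76e-10 and 2.95e-10). Counting ignored strand, and in the annotation used for counting SOCS2 shares 0 exon bases with other genes. In another annotation, GENCODE, 1.54% of the 100-base windows of SOCS2 transcripts also occur in SOCS2-AS1. How many fragments fell there was not measured.

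SOCS3, an inhibitor that binds JAK kinases and the gp130 receptor, had the lowest level of the 9 genes per kilobase of annotated exon and was higher in the combination only. It lies at chr17:78356777-78360079 (minus strand). In DMSO it stood at 4.52, 6.52, 4.70 and 5.93 CPM, from 99 to 142 counts a library. In MI-503 it was 5.09, 5.70, 5.95 and 5.98 CPM, within the DMSO range. In the combination it was 9.44, 9.73 and 9.26 CPM, above all libraries of the other groups. The log2 fold change of the combination was 0.81 against DMSO (0.56 to 1.06, adjusted p = 1.13e-05) and 0.74 against MI-503 (0.49 to 0.98, adjusted p = 6.44e-05), while MI-503 alone gave 0.08 with an interval of −0.17 to 0.33 (adjusted p = 0.609). Without combination replicate 1, the changes were 0.84 and 0.71.

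SOCS1, which inhibits JAK kinases directly, lies at chr16:11254417-11256182 (minus strand). It was at 12.5, 13.8, 12.7 and 9.73 CPM in DMSO, at 10.97, 13.1, 14.1 and 12.98 CPM in MI-503, and at 11.4, 9.78 and 8.45 CPM in the combination. DMSO replicate 4 sat below its group and within the combination, so these groups overlapped. MI-503 differed from DMSO by 0.07 (−0.17 to 0.31, adjusted p = 0.637). Against DMSO the combination was lower by −0.30 (−0.55 to −0.04, adjusted p = 0.0441), a call that was lost in 13 of 19 alternative analyses, where adjusted p reached 0.186 without combination replicate 4. Against MI-503 the difference was −0.36 (−0.62 to −0.11, adjusted p = 0.0204), lost without MI-503 replicate 3 (adjusted p = 0.0638) or combination replicate 4 (adjusted p = 0.0558). Without combination replicate 1, the changes were −0.41 and −0.53.

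CISH, the classical immediate target of STAT5 and an inhibitor of cytokine receptors, lies at chr3:50606454-50611774 (minus strand). The bases just upstream of its start are shown because they carry the elements by which the gene is best known, 4 matches to the GAS-type motif TTCNNNGAA. From RefSeq (GRCh38.p14), the 250 bases before the start are chr3:50611775-50612024 on the minus strand, written 5′ to 3′ with the 4 matches in capitals.
CISH: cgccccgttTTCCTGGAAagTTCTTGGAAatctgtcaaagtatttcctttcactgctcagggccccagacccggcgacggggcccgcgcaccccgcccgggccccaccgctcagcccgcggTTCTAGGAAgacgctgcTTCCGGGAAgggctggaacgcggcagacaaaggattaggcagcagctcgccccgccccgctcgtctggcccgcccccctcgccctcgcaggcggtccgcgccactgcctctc
From the outermost to the innermost, the matches start 241, 230, 129 and 112 bases before the start site. They lie at chr3:50612007-50612015, chr3:50611996-50612004, chr3:50611895-50611903 and chr3:50611878-50611886. The motif reads the same on both strands, so a match covers both, and the 4 matches do not overlap. In windows from 250 bases before to 50 after the start, 7.66% of 35116 RefSeq promoters held at least 1 match and 7 promoters, this one included, held 4 or more. SOCS2 was not matched in the promoter table. The windows of STAT5A, STAT5B, PIM1, PIM2, PIM3, SOCS1 and SOCS3 held 0 matches, which says only that these letters are not in those windows.

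The level of CISH changed little beside that of SOCS2. It was 39.5, 41.1, 39.4 and 37.3 CPM in DMSO and 36.2, 38.1, 37.6 and 37.7 CPM in MI-503, which overlapped. The log2 fold change of MI-503 was −0.07 (−0.21 to 0.07, adjusted p = 0.388). In the combination CISH was at 27.5, 35.4 and 34.3 CPM, all below the libraries of both other groups, with replicate 1 lowest. The combination was lower than DMSO by −0.29 (−0.44 to −0.14, adjusted p = 0.00209) and lower than MI-503 by −0.22 (−0.37 to −0.07, adjusted p = 0.0198). Without combination replicate 1 these became −0.16 (adjusted p = 0.0179) and −0.13 (adjusted p = 0.0578), so the second call rests on that library.

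**Figure D2:**
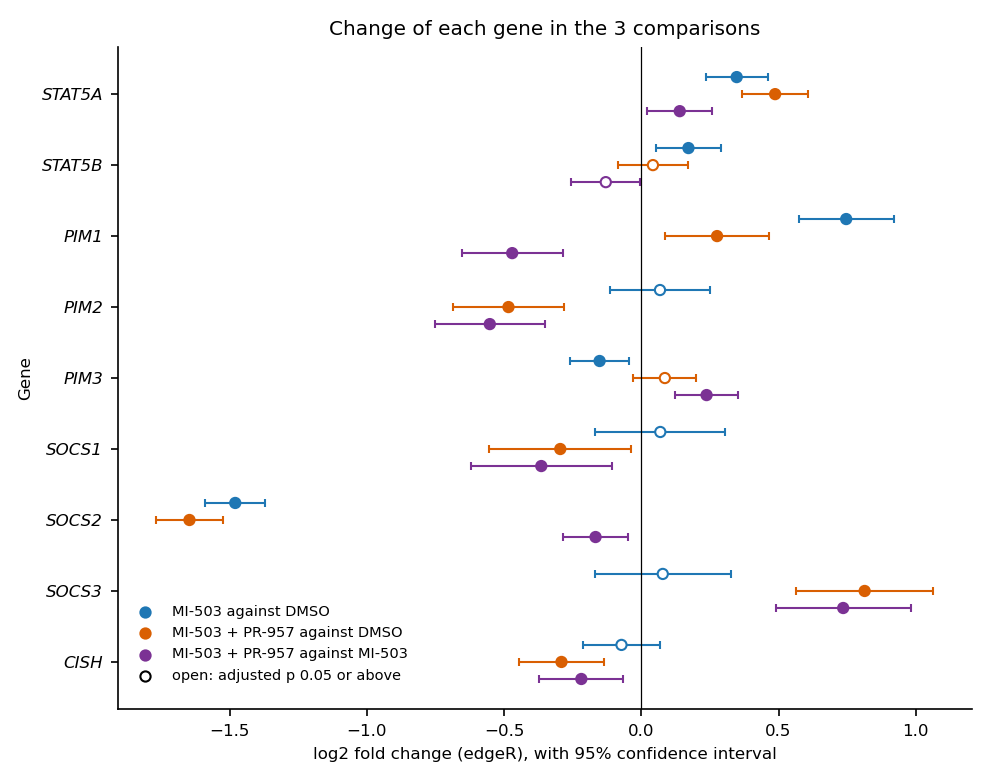
Log2 fold change (horizontal axis) of each gene in the 3 comparisons, from edgeR, with 95% confidence intervals. Filled points have an adjusted p under 0.05 and open points do not. The SOCS2 intervals against DMSO end at −1.37 and −1.53, apart from those of the other genes, while PIM1 is at 0.75 in MI-503 and at 0.28 in the combination.

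Of the PIM kinases, which phosphorylate survival and translation regulators and need no activation step beyond their own synthesis, PIM1 rose in MI-503 and less so in the combination. PIM1 lies at chr6:37170152-37175428 (plus strand). In DMSO it was 34.3, 27.8, 32.3 and 35.2 CPM. In MI-503 it was 47.2, 50.7, 59.3 and 60.5 CPM, and in the combination 38.6, 37.4 and 41.7 CPM. The 3 groups did not overlap and the combination lay between the other groups. The log2 fold change was 0.75 in MI-503 (0.57 to 0.92, adjusted p = 1.14e-06), a 1.68-fold rise. In the combination it was 0.28 (0.09 to 0.46, adjusted p = 0.0122). The combination was lower than MI-503 by −0.47 (−0.65 to −0.29, adjusted p = 2.90e-04). These calls held in all 19 alternative analyses.

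PIM2 was lower in the combination than in either other group. It lies at chrX:48913182-48919024 (minus strand). In DMSO it was 29.8, 25.4, 28.2 and 26.9 CPM, and in MI-503 23.5, 27.96, 32.2 and 32.1 CPM. MI-503 replicates 3 and 4 lay above DMSO and replicate 1 below it, so the group straddled the controls, with a log2 fold change of 0.07 (−0.11 to 0.25, adjusted p = 0.538). The combination was at 18.6, 19.6 and 21.2 CPM, below all libraries of the other groups. It was lower than DMSO by −0.48 (−0.69 to −0.28, adjusted p = 2.65e-04) and lower than MI-503 by −0.55 (−0.75 to −0.35, adjusted p = 1.43e-04). Both calls held in all 19 alternative analyses.

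PIM3 was nearly level across the groups. It lies at chr22:49960772-49964072 (plus strand). It was 64.4, 59.0, 64.8 and 62.5 CPM in DMSO, 52.0, 55.9, 59.5 and 58.3 CPM in MI-503, and 63.1, 67.4 and 69.3 CPM in the combination. MI-503 overlapped DMSO only through MI-503 replicate 3 and DMSO replicate 2. The fall of −0.15 in MI-503 (−0.26 to −0.04, adjusted p = 0.0194) was lost in 11 of 19 alternative analyses, among them other scaling factors, other filters and DESeq2. In the combination PIM3 was above MI-503 by 0.24 (0.12 to 0.35, adjusted p = 0.00173), with no overlap, and this call held in all 19. Against DMSO it differed by 0.09 (−0.03 to 0.20, adjusted p = 0.179), and without combination replicate 1 by 0.14 (adjusted p = 0.0240). It was also called with upper-quartile factors (0.15, adjusted p = 0.0129) and with the stricter filter (0.12, adjusted p = 0.0464).

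Of the STAT5 factors themselves, STAT5A was higher in both treated groups and STAT5B in MI-503. STAT5A, at chr17:42287547-42311943 (plus strand), was 44.2, 49.3, 43.9 and 46.4 CPM in DMSO. It was 59.0, 55.6, 64.1 and 55.3 CPM in MI-503 and 64.4, 65.2 and 63.6 CPM in the combination, all above DMSO. The log2 fold changes were 0.35 (0.23 to 0.46, adjusted p = 4.04e-05) and 0.49 (0.37 to 0.61, adjusted p = 9.03e-07). Between the combination and MI-503 the difference was 0.14 (0.02 to 0.26, adjusted p = 0.0496), with overlap through MI-503 replicate 3, and this call was lost in 14 of 19 alternative analyses (adjusted p up to 0.272).

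STAT5B lies head to head with STAT5A at chr17:42199177-42288437 (minus strand). It was 76.2, 87.3, 80.1 and 81.7 CPM in DMSO, 90.03, 96.1, 94.8 and 84.8 CPM in MI-503, and 90.6, 80.3 and 79.5 CPM in the combination. The groups overlapped in every comparison. MI-503 was higher than DMSO by 0.17 (0.05 to 0.29, adjusted p = 0.0159), lost without DMSO replicate 1 (adjusted p = 0.0645) or MI-503 replicate 2 (adjusted p = 0.0573). The combination differed from DMSO by 0.04 (−0.08 to 0.17, adjusted p = 0.557) and from MI-503 by −0.13 (−0.26 to −0.00336, adjusted p = 0.0849). Combination replicate 1 was the high library, and without it the difference from MI-503 was −0.22 (adjusted p = 0.00220), while that from DMSO turned to −0.00534. STAT5A and STAT5B share 571 exon bases on opposite strands, 12.7% of the exon length of STAT5A and 8.88% of that of STAT5B, and fragments over exons of several genes were not counted. How many fragments fell there was not measured.

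Levels were compared between genes only as RPKM, which divides CPM by the exon length in kilobases. That length holds every annotated exon base of a gene, 5077 for CISH, and can exceed the length of the transcript in use. Order and shares between genes depend on it. In DMSO, SOCS2 stood highest at 36.8 ± 0.425 RPKM (SD, n = 4), followed by PIM3 at 29.8 ± 1.26. Next came PIM2 at 13.3 ± 0.903, STAT5B at 12.6 ± 0.719 and PIM1 at 12.0 ± 1.22, which did not differ beyond their spread. STAT5A at 10.2 ± 0.554 and SOCS1 at 10.0 ± 1.43 were also within their spread of each other. CISH was at 7.75 ± 0.306 and SOCS3 lowest at 1.98 ± 0.354. In MI-503 PIM3 stood highest at 26.8 ± 1.58 and PIM1 was second at 20.1 ± 2.41, ahead of STAT5B, PIM2, SOCS2 and STAT5A, which lay between 13.03 and 14.2 RPKM and within their spread. In the combination PIM3 again stood highest at 31.7 ± 1.51 (n = 3), PIM1 (14.5 ± 0.818), STAT5A (14.3 ± 0.179) and STAT5B (12.99 ± 0.967) came next, and SOCS2 was at 11.7 ± 1.02. SOCS3 remained lowest in both, at 2.07 ± 0.150 and 3.46 ± 0.0866 RPKM.

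**Figure D3:**
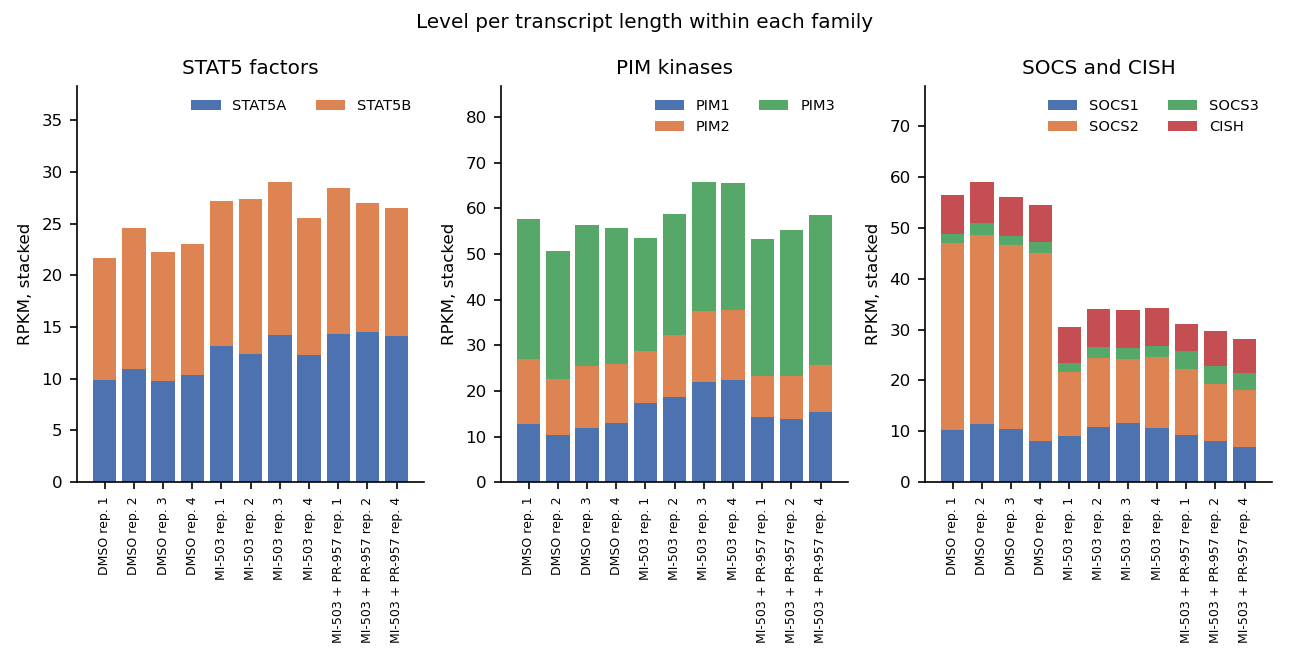
Stacked levels in RPKM (CPM per kilobase of exon, vertical axis from 0) of the STAT5 factors, the PIM kinases and the SOCS and CISH genes, with 1 column for each of the 11 libraries. SOCS2 makes up 65.1% of the SOCS and CISH column on average in DMSO, 39.8% in MI-503 and 39.5% in the combination.

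Within each family the makeup changed with treatment, which is given as a description with no test. SOCS2 made up 65.1% ± 2.06 of the summed RPKM of SOCS1, SOCS2, SOCS3 and CISH in DMSO, 39.8% ± 1.74 in MI-503 and 39.5% ± 1.92 in the combination. SOCS3 went from 3.50% ± 0.590 and 6.25% ± 0.184 to 11.7% ± 0.518 in the same order. PIM1 made up 21.7% ± 1.30, 33.0% ± 0.976 and 26.0% ± 0.923 of the 3 PIM genes, and PIM2 24.1% ± 0.672, 22.8% ± 1.14 and 17.1% ± 0.300. STAT5A was 44.7% ± 0.580 of the STAT5 pair in DMSO, 47.8% ± 1.72 in MI-503 and 52.5% ± 1.83 in the combination, so that its part of the pair did not overlap between the combination and DMSO.

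The genes with the most similar pattern to each of the 9 were found by the root mean square difference of centered log2 CPM over the 11 libraries, among 10041 genes that averaged 5 CPM or more. REEP3 and CNOT6L were nearest to SOCS2, at 0.09 each, where the SOCS2 values themselves spread by 0.75. For STAT5A the nearest were WDFY4 (0.06) and LGALS9 (0.07), beside a spread of 0.21. PIM1 was nearest to PCED1B-AS1 (0.11) and SASH3 (0.13), beside 0.34, and PIM2 to NRROS and GALNT2 (0.10 each), beside 0.26. SOCS3 was nearest to RTL6 (0.12) and MXD4 (0.13), beside 0.38. STAT5B (RPL13A and RPL3), PIM3 (ASCC2 and TNIP2), SOCS1 (LSS and DLX4) and CISH (SAC3D1 and RNF141) spread by 0.11 to 0.23, so their neighbors rest on small differences.

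Upstream of STAT5, the receptor FLT3 fell from 324 ± 11.3 CPM in DMSO to 230 ± 2.56 in MI-503 and 193 ± 23.5 in the combination. Of 12 genes for receptors and the FLT3 ligand, 10 were tested, of which 5 were higher and 1 lower in MI-503 against DMSO, beside 22.0% and 29.3% of all tested genes, with a median log2 fold change of 0.70 beside −0.03 over all tested genes. IL7R, the interleukin-7 receptor, rose from 2.04 ± 0.268 to 8.42 ± 0.638 and 29.3 ± 2.88 CPM, and CSF3R, the receptor of G-CSF, from 66.5 to 167 and 165 CPM on average. Against MI-503, the combination had 1 of these genes higher (IL7R, log2 fold change 1.80) and 5 lower, FLT3 among them (−0.25, adjusted p = 0.00274), beside 23.6% and 23.8%. The count became 3 lower without combination replicate 2 or replicate 4. Also among the 5 were EPOR (−0.23), whose libraries overlapped between these groups, and KIT, IL2RB and IL2RG. These last 3 rested on few counts, at 0.608, 0.499 and 0.898 CPM in the combination on average. Their lowest combination libraries held 10, 4 and 15 counts. KIT, at 0.420 CPM in DMSO on average, was also 1 of the 5 higher in MI-503 against DMSO. CSF2RA and IL3RA, named after their values were seen, had no count in any library. Both lie in a region that hg38 holds on X and on Y, and fragments placed at several positions were not counted. Whether this accounts for the absent counts was not tested.

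JAK kinases phosphorylate STAT5 at cytokine receptors. JAK1, JAK2 and TYK2 were higher in MI-503 against DMSO (log2 fold changes 0.29, 0.34 and 0.34), and JAK3 differed by −0.23 (adjusted p = 0.143). In the combination against MI-503, JAK2 (0.32) and TYK2 (0.23) were higher and JAK3 lower (−0.57, adjusted p = 0.00370), and JAK1 differed by 0.02 (adjusted p = 0.730). Of 4 other STAT factors, STAT2 (0.93), STAT3 (0.18), STAT4 (1.02) and STAT6 (0.24), 4 were higher in the combination than in MI-503, beside 23.6% of all tested genes. STAT4 was near the detection limit, at 0.3901 CPM in MI-503 and 0.758 in the combination on average, and its adjusted p was 0.0459. The 4 calls became 2 without combination replicate 2 and 3 without combination replicate 1. In MI-503 against DMSO, 2 of the 4 were higher and 1 lower, STAT3 (−0.15, adjusted p = 0.00567), beside 22.0% and 29.3%. In the combination against DMSO, 2 were higher, STAT2 (1.47) and STAT6 (0.35), and 0 lower, beside 31.7% and 32.8%. There, STAT3 (0.03, adjusted p = 0.559) and STAT4 (0.52, adjusted p = 0.250) were not called. STAT2, which carries type I interferon signals, had the smallest adjusted p of the 4 and stood at 45.6, 66.3 and 127 CPM in the 3 groups.

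None of SOCS4, SOCS5, SOCS6 and SOCS7 was called by edgeR, DESeq2 or limma-voom in the combination against MI-503. Over all tested genes, edgeR called 23.6% higher and 23.8% lower there. The log2 fold changes of these 4 were −0.02 to 0.11, and 0 of the 4 had an unadjusted edgeR p under 0.05. In MI-503 against DMSO, 1 of these 4 was called, SOCS6 (lower by −0.25, adjusted p = 0.0264), beside 22.0% of all tested genes higher and 29.3% lower. That call was lost in 10 of 19 alternative analyses, DESeq2 among them. In the combination against DMSO, SOCS4 (0.17, adjusted p = 0.0163) and SOCS5 (0.20, adjusted p = 0.0302) were higher and SOCS6 lower (−0.24, adjusted p = 0.0377), beside 31.7% and 32.8% of all tested genes. Only 1 of the 2 was still called higher when DMSO replicate 1, 3 or 4 was left out, or when combination replicate 1 was. The call of SOCS6 was lost when any single combination library, or DMSO replicate 1, 2 or 4, was left out. Of the subunits that join the SOCS box to a ubiquitin ligase, ELOC fell in MI-503 (−0.41, adjusted p = 2.53e-04), while ELOB (−0.16), CUL5 (−0.06) and RNF7 (−0.10) were not called. In the combination, ELOB was lower than in DMSO (−0.45, adjusted p = 9.03e-05) and than in MI-503 (−0.29, adjusted p = 0.00654). RNF7 was higher there than in MI-503 (0.23, adjusted p = 0.00435), and ELOC was lower than in DMSO (−0.54, adjusted p = 2.56e-05). CUL5 was not called in either comparison of the combination. Of 12 phosphatases and other inhibitors of this pathway, 7 were higher, among them PTPRJ (0.45) and PTPN6 (0.25), and 2 lower in MI-503 against DMSO, beside 22.0% and 29.3% of all tested genes. In the combination against MI-503, 4 were higher, among them PIAS4 (0.22) and CBL (0.23), and 2 lower, beside 23.6% and 23.8%. These counts became 3 and 4 without combination replicate 1, 1 lower without MI-503 replicate 1, 2 or 3, and 2 higher without combination replicate 2.

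Other known target genes of STAT5 moved in both directions. Of 10, IL2RA had no count and 9 were tested, with 1 higher and 4 lower in MI-503 against DMSO (median −0.33, beside 22.0% and 29.3% of all tested genes), and 1 higher and 5 lower in the combination against DMSO (median −0.18, beside 31.7% and 32.8%). The last count became 2 higher without combination replicate 1. MYC fell from 657 ± 10.3 CPM to 495 ± 24.4 and 372 ± 13.7, with log2 fold changes of −0.41 in MI-503 (adjusted p = 5.71e-07) and −0.82 in the combination (adjusted p = 1.54e-10). MCL1, a survival protein of the BCL2 family, fell by 0.34 on the log2 scale in MI-503, and CCND2, a D-type cyclin, by 0.62 in the combination against DMSO. MCL1 was higher in the combination than in MI-503 (0.16, adjusted p = 0.00288) and lower than in DMSO (−0.18, adjusted p = 8.99e-04). CCND2 was not called in MI-503 against DMSO (−0.05, adjusted p = 0.490). It was lower in the combination than in MI-503 (−0.57, adjusted p = 2.53e-06). The gene called higher in both comparisons with DMSO was BCL6 (1.11 in each), a repressor that STAT5 is known to lower in other cells. Of 9 genes whose proteins PIM kinases phosphorylate, 6 were lower, among them EIF4EBP1 (−0.74) and CDC25A (−0.55), and 1 higher in MI-503 against DMSO, beside 29.3% and 22.0%. In the combination CDC25A was lower still (−0.71 against MI-503), whereas CDKN1A, the cell cycle inhibitor p21, was higher than in MI-503 (0.59, adjusted p = 2.53e-07). Against DMSO, CDKN1A was lower in MI-503 (−0.43, adjusted p = 3.08e-06) and higher by 0.16 in the combination (adjusted p = 0.0182).

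**Figure D4:**
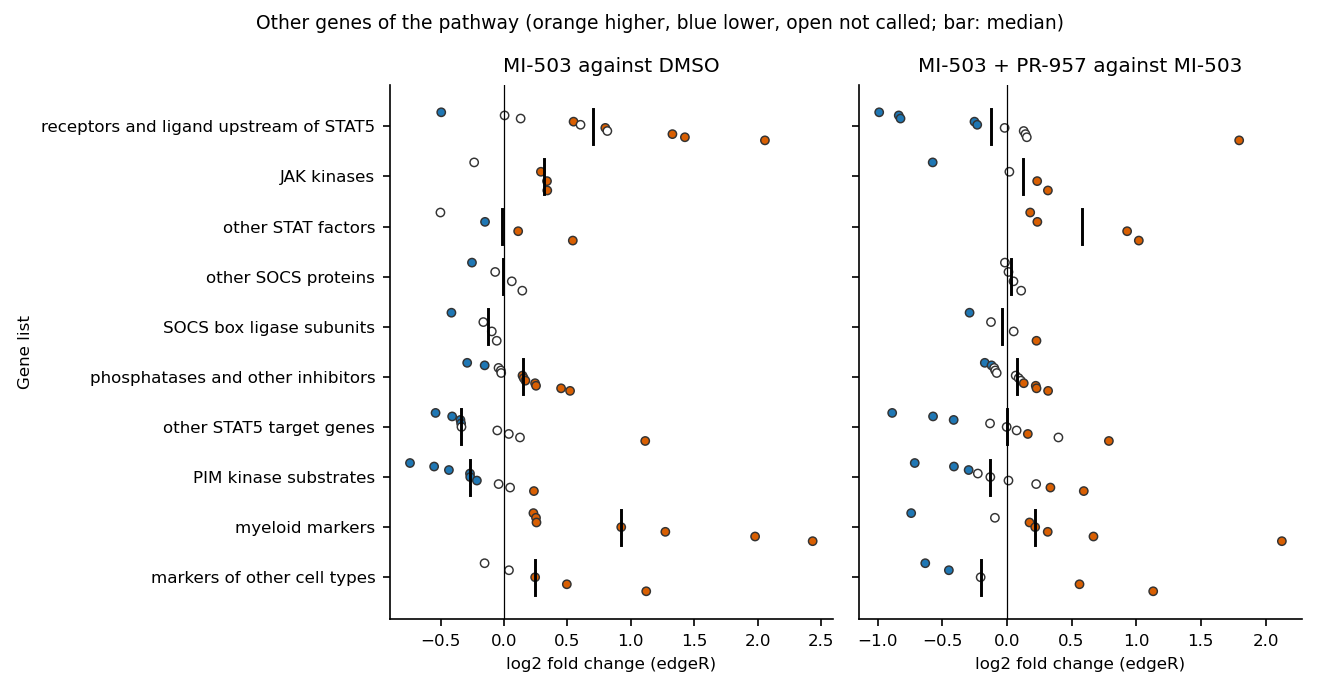
Log2 fold changes (horizontal axis, edgeR) of the tested genes of 10 lists around STAT5, 1 point per gene, in MI-503 against DMSO (left) and the combination against MI-503 (right). Orange points were called higher, blue points lower and open points not called, and the bar is the median of the list. The 4 other STAT factors are orange on the right, where none of the 4 other SOCS genes is called. In the combination against DMSO, not drawn, 2 of these 4 STAT factors were called higher, beside 31.7% of all tested genes. Over all tested genes, 23.6% were called higher and 23.8% lower on the right.

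Of the 7 tested myeloid markers, 7 were higher and 0 lower in MI-503 against DMSO, beside 22.0% and 29.3% of all tested genes, and 6 were higher and 0 lower in the combination against DMSO, beside 31.7% and 32.8%. In the combination against MI-503, 5 were higher and 1 lower, beside 23.6% and 23.8%, with 3 higher without MI-503 replicate 1, combination replicate 2 or combination replicate 4. CSF1R rose by 2.43 on the log2 scale in MI-503 and 3.10 in the combination against DMSO, ITGAM by 1.27 and 1.59, and LYZ by 1.98 and 4.11. LYZ also rose by 2.13 between MI-503 and the combination, where its level ran from 599 to 2513 CPM. MPO was the marker lower in the combination than in MI-503 (−0.74, adjusted p = 4.67e-05). Against DMSO, MPO was higher in MI-503 (0.92) and not called in the combination (0.18, adjusted p = 0.164). Of the 5 tested markers of other cell types, 3 were higher in MI-503 against DMSO, beside 22.0%, and 2 were higher and 1 lower in the combination against DMSO, beside 31.7% and 32.8%. Among them, PECAM1, which myeloid cells also express, rose in both treatments (1.12 and 1.68), while NCAM1 was higher in MI-503 (0.25) and lower in the combination (−0.39).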

How the data were processed

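Poly(A) RNA of 11 MOLM-13 libraries had been sequenced as read pairs. The authors deposited unnormalized fragment counts for each gene, obtained with featureCounts 2.0.1 from RefSeq exons of hg38 without regard to strand, leaving out fragments that mapped to several positions or overlapped several genes. The submitters' processing notes name Trimmomatic 0.39 and STAR 2.7.10a. Tables of the authors' own DESeq2 fold changes and p-values were not used. The authors' joined table and their single-library files held the same counts, with 0 cells that differed.

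Counts were fitted in R 4.3.3 with edgeR 4.0.16 (filterByExpr with a minimum count of 10 and a total of 15, TMM factors of 0.956 to 1.06, 1 mean per group, all 11 libraries in 1 fit with a biological coefficient of variation of 6.14%) and tested by the quasi-likelihood F test, which was checked on simulated counts. CPM are relative to TMM-scaled totals. A gene with 0 counts is bounded at 3 counts, 0.0729 to 0.159 CPM per library, which covers counting error only. Alternatives were 2 other scalings, 2 other filters, DESeq2 1.42.0, limma-voom (limma 3.58.1), only the groups compared, a replicate block and each library left out, 19 in all, beside a threshold of 0.01.

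The 9 genes and the 10 gene lists were chosen with earlier results of these data known. Genes named from each list were the 2 with the smallest adjusted p in each comparison, all genes of lists of up to 5, FLT3 and MYC. BCL6, IL2RA, KIT, IL2RB, IL2RG, EPOR, MPO, CD14 and 4 markers near 0 were named after their values were seen. Of the lists as first written, 2 genes are not reported here.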

Additional observations from a re-analysis of the deposited data

How the results depend on the processing

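Of 540 log2 fold changes of the 9 genes under alternatives, 478 kept their direction and their side of the threshold, 54 lost a call, 5 gained one and 3 changed sign. The 3 sign changes were in differences that were not called, each when 1 library was left out. The change of STAT5B in the combination against DMSO then ran from −0.00534 (without combination replicate 1) to 0.0781, that of SOCS1 in MI-503 against DMSO from −0.0225 (without DMSO replicate 4) to 0.133, and that of SOCS3 in MI-503 against DMSO from −0.00823 (without DMSO replicate 1) to 0.179. The number of the 9 genes called lower in MI-503 against DMSO was 1 in place of 2, through the loss of PIM3, with DESeq2, a threshold of 0.01, either other scaling (RLE or upper-quartile) or either other filter (stricter, or none), and ran from 1 to 2 when single libraries were left out. At a threshold of 0.01, 2 genes in place of 5 were called lower in the combination against MI-503. The counts of calls over all tested genes stayed within 1.5 times their value under all alternatives, and 1097 of 1200 counts over the gene lists did so. Mean levels moved by more than 1 SD in 5 of 180 cases: STAT5A in the combination (67.0 CPM without TMM, 65.6 with upper-quartile factors), SOCS2 in DMSO (216 CPM with either) and SOCS3 in the combination (9.87 CPM without TMM).

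Same-numbered libraries of different groups deviated together by a correlation of −0.11 to 0.14, and not every library matched its own number best. The main fit therefore left replicate numbers out. With so few libraries per group, these correlations cannot tell whether same-numbered libraries were set up together. With the replicate block, SOCS1 in the combination against DMSO was no longer called (−0.26, adjusted p = 0.0673), which left 3 genes lower in place of 4, and no other call of the 9 genes changed. SOCS3 and SOCS1, at 5.42 and 12.2 CPM in DMSO, rest on the fewest counts and had the widest intervals.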
